A study of Homo sapiens with 12 samples.

Results

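The DNA replication machinery was examined as a list of 40 genes chosen by symbol, among 25540 genes listed in both tables of the series. All 40 were found in both tables and all 40 passed the filter on low values. RNA came from LS411N, a human colon cancer cell line, and from LS411N-BR, its derivative that resists BRAF inhibitors. All cells were puromycin resistant and held a hairpin RNA that doxycycline switches on and that targets MUC1, the gene of a transmembrane mucin. LS411N was grown in RPMI medium with 10% serum, and LS411N-BR in the same medium with 4 µM of a BRAF inhibitor, so that resistance and the presence of the drug cannot be told apart. Cells of each line received 500 ng/ml doxycycline (called induced here) or 0.1% DMSO as vehicle (uninduced), with 3 libraries in each of the 4 groups. A single hairpin target was used and no library had doxycycline without the hairpin, so the effects of doxycycline itself and of MUC1 loss cannot be told apart. Whether the libraries of a group came from separate cultures or days, and whether LS411N-BR is 1 clone, is not stated in the labels, so p-values measure the spread between these libraries, which may be technical.

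A cell copies its genome once per division. In G1 phase the origin recognition complex, CDC6 and CDT1 load the MCM2-7 helicase ring onto origins, and geminin (GMNN) keeps CDT1 from loading it again. On entry into S phase, CDC45 and the GINS complex join the ring to form the active helicase, primase and the DNA polymerases copy both strands around the sliding clamp PCNA, and FEN1 and DNA ligase 1 join the Okazaki fragments of the lagging strand. E2F transcription factors, held back by the retinoblastoma family outside S phase, switch on most of these genes, which makes the set a common readout of proliferation in tumour cells.

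Levels are in TPM (a transcript's share of the library's transcripts, adjusted for length) after the libraries of a table were put on a common scale by the median of their ratios over genes. Depth per library is unknown, since the deposited TPM keep no read totals. Scaling factors were between 0.887 and 1.157, the largest being that of replicate 3 of uninduced LS411N. In LS411N-BR they went with doxycycline: 0.903, 0.972 and 0.916 uninduced, and 1.125, 1.035 and 1.068 induced. Replicate 3 of uninduced LS411N stood apart: the SD of its log2 differences to the other libraries of its group was 0.232 and 0.233, against 0.0916 to 0.124 in the other 10 replicate pairs. Colon epithelial markers were high in every library (EPCAM from 504.9 TPM, VIL1 from 76.5 TPM), except CDX1, at most 0.044 TPM. The summed fibroblast markers stayed at or below 0.134 TPM and the summed endothelial markers at or below 0.0369 TPM. Of the immune markers reported here, PTPRC and CD3E were at most 0.0584 TPM, whereas LYZ lay between 2670 and 2804 TPM in uninduced LS411N and between 42.2 and 45.7 TPM in induced LS411N-BR, and CD68 between 7.55 and 63.5 TPM. The part of LYZ and CD68, which differed between the groups, in any result below was not tested. In bulk RNA, fewer cells that express a gene and less RNA of it per cell cannot be told apart.

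MUC1 was reduced in every induced library. In LS411N it stood at 5.23, 6.78 and 3.92 TPM uninduced and at 0.934, 0.78 and 0.984 TPM induced, and fell by 83.1% (log2 fold change -1.71 ± 0.15 SE, adjusted p = 8.1e-05 by limma). In LS411N-BR the levels were 4.09, 4.06 and 4.67 TPM against 0.621, 0.374 and 0.412 TPM, a log2 fold change of -1.84 ± 0.07 (adjusted p = 4.1e-08). The groups did not overlap in either line, and the effects differed by -0.08 ± 0.18 (adjusted p = 0.84).

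With doxycycline, more replication genes fell than rose in both lines, by 32% or less. A gene was called at a limma adjusted p under 0.05. In LS411N, 12 of the 40 genes were called lower and 2 higher, against 16% and 18.8% of all 11289 genes tested. In LS411N-BR, 27 were called lower and 2 higher, against 32.2% and 32.3% of all 11313 genes tested. The falls reached 20.8% in LS411N (LIG1) and 32% in LS411N-BR (PRIM1), and the median log2 fold change of the 40 genes was -0.09 and -0.18, against 0.01 and 0.00 for all genes. Called lower in both lines were 11 genes: ORC6, MCM2, MCM5, MCM7, GINS2, POLA1, POLA2, POLD1, RFC1, LIG1 and UHRF1. Another 16 were called lower in LS411N-BR but not in LS411N, and POLE the other way round. The remaining 12 were called lower in neither line: CDC6 and RRM2 rose in LS411N, MCM10 and POLD3 rose in LS411N-BR, and 8 were not called in either direction in either line (ORC1, MCM3, GINS1, RFC2, FEN1, RRM1, TYMS and E2F2).

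**Figure D1:**
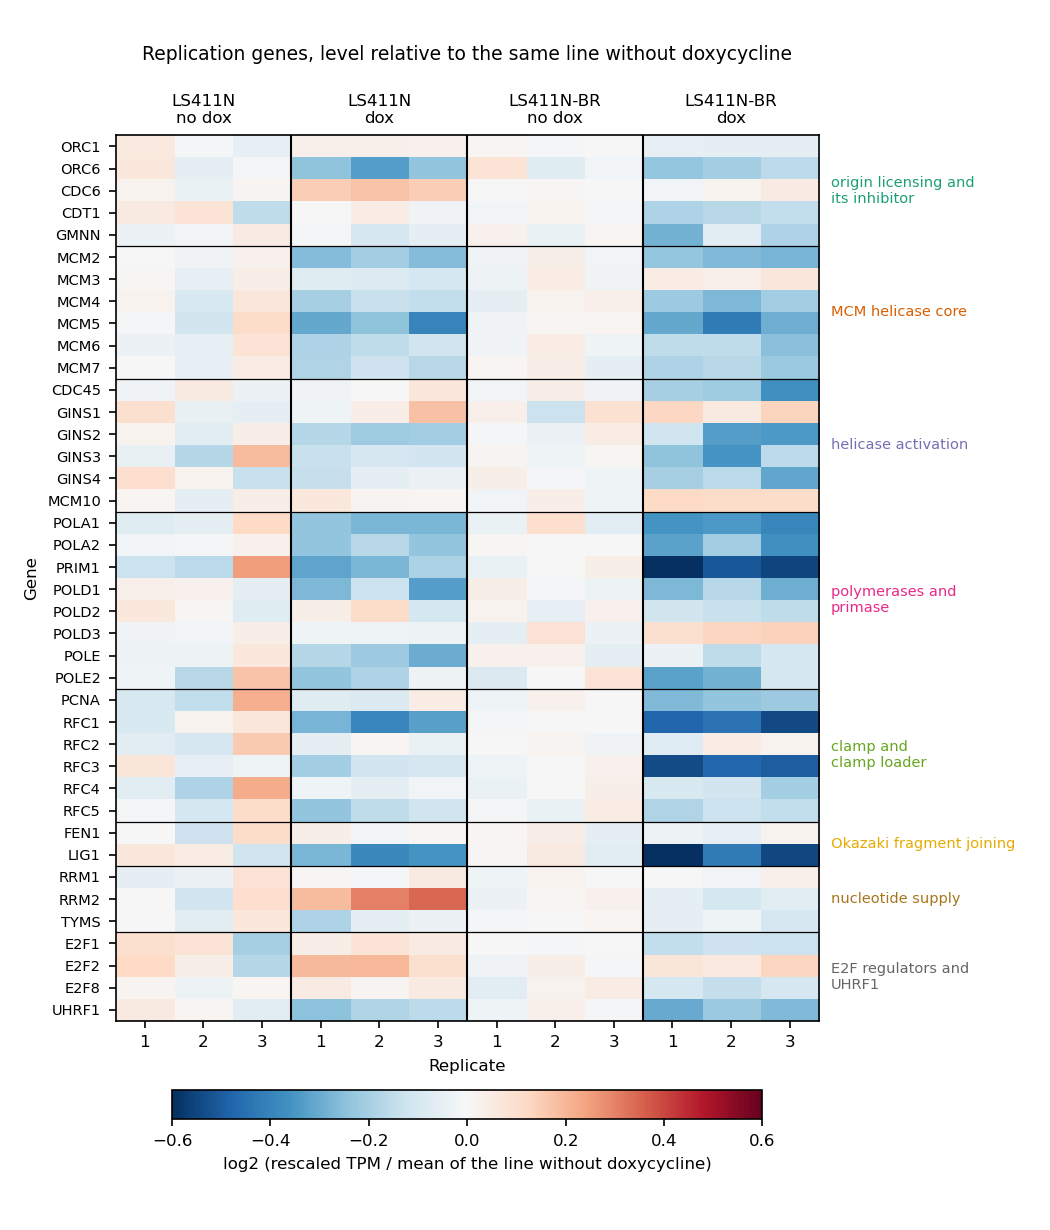
Level of each of the 40 replication genes (rows, grouped by role) in each of the 12 libraries (columns), as the log2 ratio of rescaled TPM to the mean of the uninduced libraries of the same line. Blue is lower and red higher: the induced LS411N-BR libraries are blue for most rows, with PRIM1, RFC1, RFC3 and LIG1 among the darkest, while RRM2 is red in induced LS411N. Without rescaling the LS411N-BR columns shift upward.

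These directions are relative to the bulk of genes. In the TPM as deposited, with no rescaling, the median of all genes itself shifted by 0.18 in LS411N-BR and by 0.08 in LS411N. On that scale no replication gene was called lower or higher in LS411N (at an unadjusted p under 0.05, 1 was higher and 0 were lower), against 3.43% and 9.75% of all genes. In LS411N-BR on that scale 5 were called lower (POLA1, PRIM1, RFC1, RFC3 and LIG1) and 12 higher, among them MCM3, MCM10, GINS1 and POLD3, against 11.1% and 56.1% of all genes. The effect of 16 of the 40 genes in LS411N-BR was below 0 after rescaling and above 0 as deposited, and 10 of these 16 had been called lower (ORC6, CDT1, GMNN, MCM6, MCM7, POLD2, RFC4, RFC5, E2F1 and E2F8). Effects above 0 thus went from 7 to 23 of the 40 genes. Over all genes they went from 5614 of 11313 to 8686 of 11322, so the turn was not particular to the replication genes. The calls over all genes moved too, from 3653 higher and 3644 lower to 6351 and 1252 in LS411N-BR, and from 2126 and 1804 to 1100 and 387 in LS411N. The distance of the replication genes from the median of all genes moved less between the scales: their median lay -0.18 from it in LS411N-BR after rescaling and -0.15 as deposited, and -0.10 and -0.09 in LS411N. Of the 40 genes, 33 after rescaling and 31 as deposited lay below the median of all genes in LS411N-BR, and 28 and 27 in LS411N. Verbs of change below refer to the rescaled values.

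**Figure D2:**
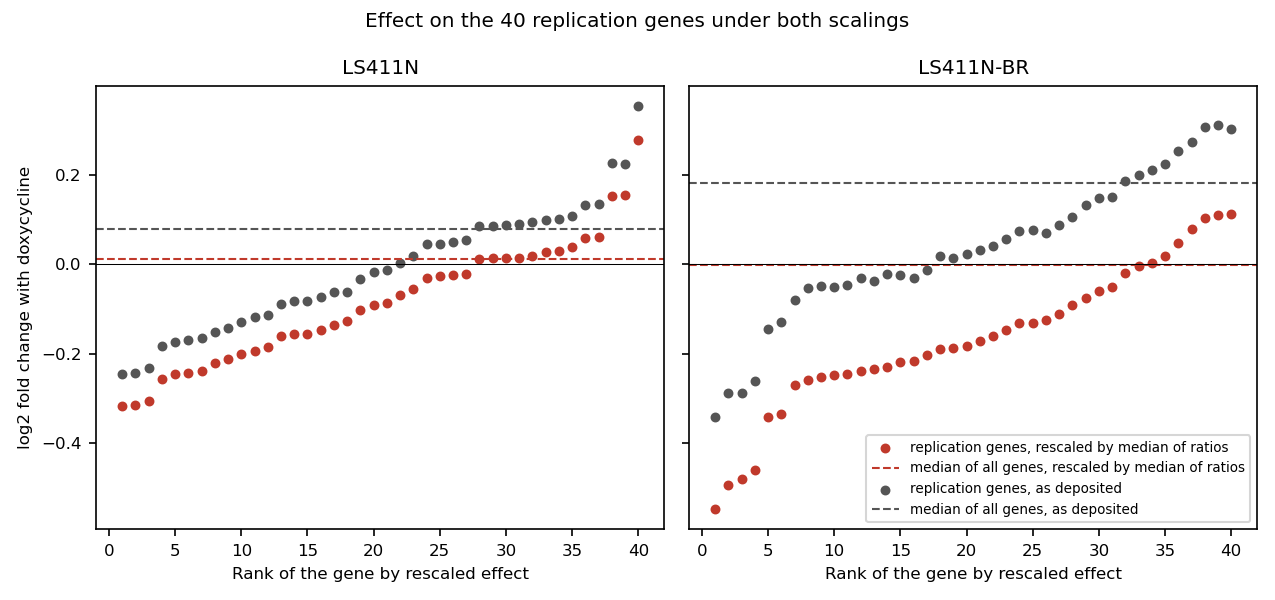
Log2 fold change with doxycycline of the 40 replication genes, ordered by the rescaled effect, in LS411N (left) and LS411N-BR (right), after rescaling (red) and as deposited (grey), with the median of all genes tested as dashed lines. The grey points and their dashed line sit above the red ones by a similar amount, and in LS411N-BR most grey points lie nearer 0 or above it.

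The summed level of the 40 genes was 1800, 1731 and 1899 TPM in uninduced LS411N and 1703, 1736 and 1744 TPM in induced LS411N, and these ranges overlapped (change -4.53%). In LS411N-BR it was 1918, 1950 and 1942 TPM uninduced and 1729.8, 1734 and 1732 TPM induced, without overlap (-10.6%). As deposited, the same sums changed by -0.523% and 3.42%, so the sign in LS411N-BR turned. No test was made on the sums.

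Promoter sequence was looked at because these genes share E2F as a regulator and many moved together. RefSeq windows from 250 bases before to 50 bases after the gene start (build GRCh38.p14) were given for 35 of the 40 genes, and not for MCM4, MCM5, GINS4, POLD3 and E2F8. The words searched, on both strands, were TTTCCCGC, TTTGGCGC, TTTGCCGC and TTTCGCGC, which are forms of the E2F binding word and can overlap one another, and TTTGAA, the CHR word of genes expressed late in the cycle. At least 1 E2F word was present in 20 of 35 windows (57.1%), against 10 of 50 windows of the other replication genes (20%) and 703 of 15843 windows of protein-coding genes (4.44%). The CHR word was in 1 of 35 (2.86%, RRM1), against 12.1% of protein-coding windows. The median GC content was 66% in the replication genes and 62.7% in protein-coding genes. In 17 of the 20 genes an E2F word lay within 60 bases of the start. A match is a description of the letters and not a bound site.

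The stretches below, 160 bases before the RefSeq start, were chosen to show the E2F words (in capitals, on either strand) in genes of several roles that were called lower in LS411N-BR. RBL1, a retinoblastoma family member from the list of other replication genes, is included because it fell most of all.
MCM6 promoter, chr2:135876444-135876603, minus strand: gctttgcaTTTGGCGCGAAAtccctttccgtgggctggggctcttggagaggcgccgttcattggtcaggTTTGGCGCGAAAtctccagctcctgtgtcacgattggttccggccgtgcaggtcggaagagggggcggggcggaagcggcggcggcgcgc
GINS2 promoter, chr16:85688955-85689114, minus strand: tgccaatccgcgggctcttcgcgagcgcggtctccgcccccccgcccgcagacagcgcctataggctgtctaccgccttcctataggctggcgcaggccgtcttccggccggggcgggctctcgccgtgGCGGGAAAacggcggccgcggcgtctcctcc
RFC3 promoter, chr13:33817989-33818148, plus strand: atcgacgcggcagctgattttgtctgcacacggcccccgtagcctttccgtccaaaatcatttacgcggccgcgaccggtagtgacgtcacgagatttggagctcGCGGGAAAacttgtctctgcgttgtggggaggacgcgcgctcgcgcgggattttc
LIG1 promoter, chr19:48170345-48170504, minus strand: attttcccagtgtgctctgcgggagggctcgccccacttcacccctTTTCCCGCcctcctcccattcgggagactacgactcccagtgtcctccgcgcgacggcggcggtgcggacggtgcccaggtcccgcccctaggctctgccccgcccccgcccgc
UHRF1 promoter, chr19:4909341-4909500, plus strand: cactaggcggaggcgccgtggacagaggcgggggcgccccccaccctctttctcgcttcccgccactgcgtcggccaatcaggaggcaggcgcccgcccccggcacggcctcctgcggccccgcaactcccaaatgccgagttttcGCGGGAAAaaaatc
E2F1 promoter, chr20:33686386-33686545, minus strand: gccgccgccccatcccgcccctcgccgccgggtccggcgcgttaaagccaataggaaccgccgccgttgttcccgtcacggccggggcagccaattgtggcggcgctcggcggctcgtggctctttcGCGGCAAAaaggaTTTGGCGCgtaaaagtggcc
RBL1 promoter, chr20:37095998-37096157, minus strand: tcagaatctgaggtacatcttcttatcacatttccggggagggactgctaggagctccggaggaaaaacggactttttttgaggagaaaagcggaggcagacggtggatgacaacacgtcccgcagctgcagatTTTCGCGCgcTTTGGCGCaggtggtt
Both genes below had no E2F word in the window and are shown because their values stood out, PRIM1 with the largest fall of the 40 genes and RRM2 with the largest rise.
PRIM1 promoter, chr12:56752324-56752483, minus strand: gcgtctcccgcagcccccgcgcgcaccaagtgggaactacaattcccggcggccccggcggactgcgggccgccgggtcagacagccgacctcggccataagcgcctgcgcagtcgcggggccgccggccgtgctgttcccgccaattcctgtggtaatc
RRM2 promoter, chr2:10122579-10122738, plus strand: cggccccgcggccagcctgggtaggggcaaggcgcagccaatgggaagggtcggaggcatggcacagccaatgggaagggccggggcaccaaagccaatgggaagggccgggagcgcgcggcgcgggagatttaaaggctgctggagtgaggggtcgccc
MCM6 carried 4 matches in the stretch, as 2 words that overlap the next on the opposite strand, and E2F1 carried 2.

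Genes with and without an E2F word were both among those that fell. Of the 20 genes with a word, 14 were called lower in LS411N-BR (median log2 fold change -0.20), and of the 15 without one, 9 were called lower and 1 higher (median -0.13). In LS411N, 8 of 20 with a word were called lower and 1 higher (median -0.13), against 3 lower and 1 higher of 15 without (median -0.02). Of all genes tested, 16% were called lower and 18.8% higher in LS411N, and 32.2% and 32.3% in LS411N-BR. CDC6, MCM3, GINS1, POLE, TYMS and E2F2 carried a word and were not called lower in LS411N-BR, and the medians are descriptions without a test.

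**Figure D3:**
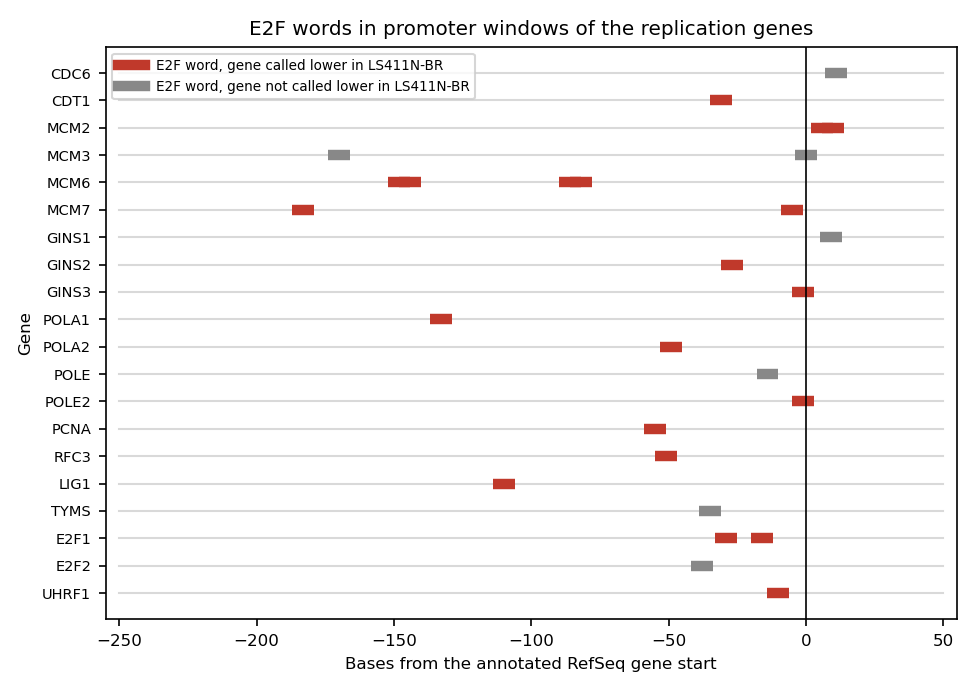
Position of each E2F word (8 bases, either strand) relative to the annotated RefSeq gene start in the 20 replication genes that had one. Red marks genes called lower in LS411N-BR after rescaling (14 genes) and grey the other 6, and most words lie within 60 bases of the start in both colours.

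Origin licensing was split. ORC6, the smallest subunit of the origin recognition complex, stood at 22.6, 20.7 and 21.5 TPM in uninduced LS411N and at 18.3, 17.2 and 18.4 TPM induced. In LS411N-BR it stood at 24.1, 21.7 and 22.5 TPM, and 19.4, 19.8 and 20.4 TPM induced. The groups did not overlap in either line, and ORC6 fell by 17% (log2 fold change -0.26 ± 0.05 SE, adjusted p = 0.0062) and by 12.7% (-0.19 ± 0.04, adjusted p = 0.003). CDC6, the ATPase that loads the MCM ring with ORC, went the other way in LS411N, from 45, 43.1 and 44.9 TPM to 49.1, 49.96 and 49.2 TPM. This was a rise of 11.5% without overlap (0.15 ± 0.04, adjusted p = 0.024), and the adjusted p lay between 0.059 and 0.093 when any library other than replicate 3 of uninduced LS411N was left out. In LS411N-BR, CDC6 levels of 56.7, 57.1 and 56.7 TPM overlapped the induced 56.3, 57.7 and 58.8 TPM (0.02 ± 0.03, adjusted p = 0.58).

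Geminin and CDT1 fell in LS411N-BR and were not called in LS411N. GMNN, the inhibitor of relicensing, was at 44.6, 42.7 and 44.2 TPM in uninduced LS411N-BR and at 36.1, 42 and 38.5 TPM induced. It fell by 11.4% without overlap (-0.17 ± 0.05, adjusted p = 0.012; 0.057 without the filter on low values). In LS411N, GMNN at 45.5, 46 and 48.2 TPM overlapped the induced 46.2, 43.4 and 44.7 TPM (-0.06 ± 0.05, adjusted p = 0.4). CDT1, its partner and a loader of the MCM ring, named here after its values were seen, went from 24.1, 24.7 and 24.3 TPM to 21.4, 21.7 and 21.9 TPM in LS411N-BR and fell by 10.9% (-0.16 ± 0.03, adjusted p = 0.00083). In LS411N its groups overlapped (0.01 ± 0.07, adjusted p = 0.91). A difference between the lines was not called by limma for GMNN (-0.11 ± 0.07, adjusted p = 0.37) or CDT1 (-0.17 ± 0.07, adjusted p = 0.16). ORC1, the largest subunit of the origin recognition complex, was not called in either line (0.03 ± 0.05 and -0.05 ± 0.03).

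Most subunits of the helicase core fell in LS411N-BR after rescaling, while as deposited MCM3, MCM6 and MCM7 lay above 0. Of MCM2 to MCM7, the subunits of the ring, 3 were called lower in LS411N (MCM2, MCM5 and MCM7) and 5 in LS411N-BR, all but MCM3. MCM5 stood at 49.9, 46.5 and 54 TPM in uninduced LS411N and 40.6, 42.4 and 38 TPM induced, and at 60.002, 61.2 and 61.3 TPM against 49.1, 45.5 and 49.6 TPM in LS411N-BR. No group overlapped its counterpart, and MCM5 fell by 19.6% (-0.31 ± 0.07, adjusted p = 0.0082) and by 21% (-0.33 ± 0.04, adjusted p = 2.9e-05). MCM2 went from 54.5, 53.7 and 55.6 TPM to 45.5, 47.3 and 45.6 TPM in LS411N, and from 40.7, 42.4 and 40.9 TPM to 35.2, 34.4 and 34 TPM in LS411N-BR, also without overlap. It fell by 15.5% (adjusted p = 0.0036) and by 16.5% (adjusted p = 5.5e-05), although 22.7% of its exonic bases overlap an antisense gene and the use of strand in the authors' counting is not stated. The other subunits ranged from -0.16 to -0.09 in LS411N and from -0.23 to 0.05 in LS411N-BR on the log2 scale, where MCM3 at 0.05 ± 0.03 was the one above 0 (adjusted p = 0.21). The sum of the 6 subunits was 525 ± 20.8 TPM (SD, n = 3) uninduced and 469 ± 7.23 TPM induced in LS411N, and 481 ± 9.92 and 427 ± 3.53 TPM in LS411N-BR. As deposited it was 517 ± 99.2 and 482 ± 22.1 TPM in LS411N, and 448 ± 27.2 and 459.8 ± 23.2 TPM in LS411N-BR, where the direction turned.

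Among the genes that activate the helicase, GINS2 fell in both lines and CDC45 in the resistant line. GINS2, a subunit of the GINS complex, went from 49, 46.2 and 49.6 TPM to 42.9, 41.7 and 41.8 TPM in LS411N. In LS411N-BR it went from 41.4, 40.6 and 42.9 TPM to 38.3, 33.1 and 32.8 TPM. Neither pair of groups overlapped, and GINS2 fell by 12.8% (-0.19 ± 0.05, adjusted p = 0.013) and by 16.6% (-0.26 ± 0.05, adjusted p = 0.0021). The call in LS411N was lost without uninduced replicate 1 (adjusted p = 0.051) or induced replicate 2 (0.059) or 3 (0.054). GINS3 and GINS4 fell in LS411N-BR (-0.23 and -0.20) and were not called in LS411N, and GINS1 was not called in either line (0.06 and 0.10).

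CDC45, the factor that joins MCM and GINS into the active helicase, differed between the lines. Uninduced LS411N libraries had 26, 27.3 and 25.7 TPM of CDC45 and induced ones 26, 26.3 and 27.5 TPM, which overlapped (0.01 ± 0.05, adjusted p = 0.85). In LS411N-BR the levels were 18, 18.7 and 18 TPM against 15.9, 15.8 and 14.2 TPM, and CDC45 fell by 16.3% (-0.24 ± 0.04, adjusted p = 0.00088). MCM10, which binds the helicase and polymerase alpha, was an exception in direction: it rose in LS411N-BR from 22.8, 23.7 and 22.7 TPM to 25.1, 24.9 and 24.9 TPM. The rise was 8.27% without overlap (0.11 ± 0.03, adjusted p = 0.0089). In LS411N, MCM10 at 27.1, 25.9 and 27.6 TPM overlapped the induced 28.1, 27.2 and 27.1 TPM (0.03 ± 0.05, adjusted p = 0.66).

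**Figure D4:**
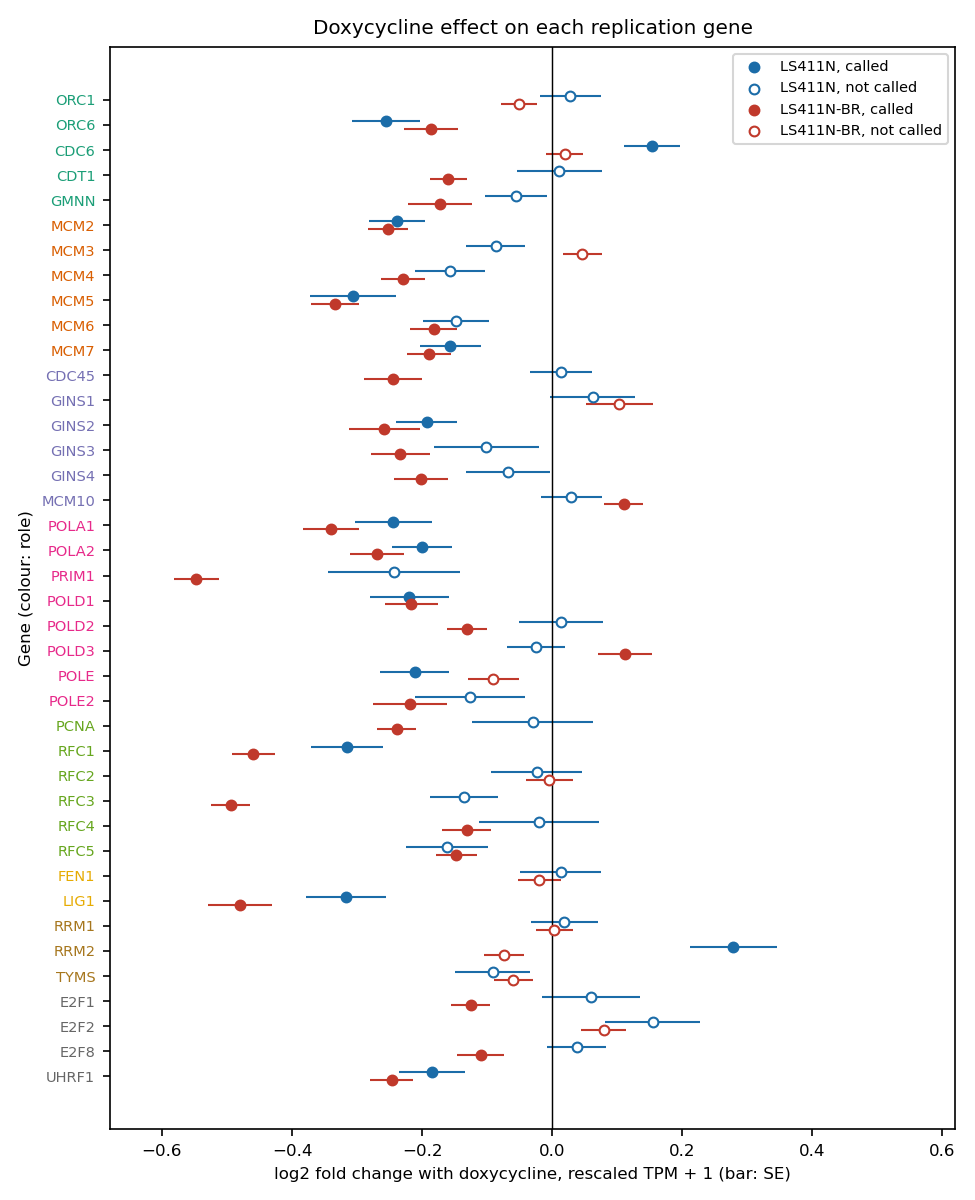
Log2 fold change with doxycycline (points, on the log2 scale of rescaled TPM + 1, with SE bars) for each replication gene in LS411N (blue) and LS411N-BR (red). Filled points passed the limma threshold: 14 in LS411N and 29 in LS411N-BR, with PRIM1, RFC3, LIG1 and RFC1 farthest left in LS411N-BR and RRM2 farthest right in LS411N.

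Polymerase and primase genes held the largest fall of the set. PRIM1, the catalytic subunit of primase that makes the RNA primers, stood at 70.8, 72.8 and 74.3 TPM in uninduced LS411N-BR and at 47.5, 51.1 and 49.6 TPM induced. It fell by 32% without overlap (-0.55 ± 0.03, adjusted p = 7.4e-07), also as deposited (-0.34, adjusted p = 2.4e-07). In LS411N, PRIM1 was at 57.2, 56 and 74.6 TPM and at 50.3, 51.8 and 54.9 TPM induced, which did not overlap, but the library that stood apart held the high value and the test was not passed (-0.24 ± 0.10, adjusted p = 0.099). The effects differed by -0.30 ± 0.12 (adjusted p = 0.14), and by -0.44 ± 0.06 without that library (adjusted p = 3e-04). Of the exonic bases of PRIM1, 14.9% overlap another gene on the same strand.

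POLA1, the catalytic subunit of polymerase alpha, fell in both lines. It went from 18.4, 18.6 and 21 TPM to 16.4, 16 and 16 TPM in LS411N, and from 16, 17.7 and 15.8 TPM to 12.8, 13 and 12.5 TPM in LS411N-BR. The groups did not overlap, and POLA1 fell by 16.5% (-0.24 ± 0.06, adjusted p = 0.014) and by 22.4% (-0.34 ± 0.04, adjusted p = 8.4e-05). The LS411N call was lost without induced replicate 2 (adjusted p = 0.056) or 3 (0.053). POLA2, the accessory subunit of polymerase alpha, and POLD1, the catalytic subunit of polymerase delta, were also called lower in both lines, with log2 fold changes from -0.27 to -0.20, although 35.1% of the exonic bases of POLA2 overlap another gene on the same strand. POLD3, an accessory subunit of polymerase delta, rose in LS411N-BR from 9.19, 10.2 and 9.35 TPM to 10.2, 10.5 and 10.6 TPM. The rise was 8.82% (0.11 ± 0.04, adjusted p = 0.037), was lost without the filter on low values (adjusted p = 0.083) and in 5 of the 6 fits that omit 1 library (0.052 to 0.14). POLD3 was not called in LS411N, with 13.9, 13.9 and 14.5 TPM against 13.9, 13.9 and 13.8 TPM (-0.03 ± 0.04, adjusted p = 0.7). POLE, the catalytic subunit of polymerase epsilon, was called lower in LS411N (-0.21, adjusted p = 0.016) and not in LS411N-BR (-0.09, adjusted p = 0.066), with a difference of 0.13 (adjusted p = 0.25).

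The clamp loader contributed RFC1 and RFC3. RFC1, its large subunit, went from 22.6, 24.4 and 25 TPM to 19.8, 18.3 and 19.2 TPM in LS411N and from 21, 21.2 and 21.2 TPM to 15.2, 15.6 and 14.5 TPM in LS411N-BR. No groups overlapped, and RFC1 fell by 20.5% (-0.31 ± 0.06, adjusted p = 0.0032) and by 28.6% (-0.46 ± 0.03, adjusted p = 1.7e-06). RFC3, a small subunit, stood at 79.6, 80.9 and 82.3 TPM in uninduced LS411N-BR and at 55.8, 58.3 and 57.4 TPM induced. It fell by 29.4% (-0.49 ± 0.03, adjusted p = 5e-07). In LS411N it was at 50.9, 46.9 and 47.6 TPM against 42, 44.8 and 45.2 TPM, without overlap but not past the test (-0.14 ± 0.05, adjusted p = 0.076; 0.041 without uninduced replicate 3).

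PCNA, the sliding clamp itself and a common proliferation marker, named here after its values were seen, fell in LS411N-BR from 192, 199 and 196 TPM to 163, 166 and 169 TPM. This was a fall without overlap (-0.24 ± 0.03, adjusted p = 7.3e-05), and as deposited it was not called. In LS411N, 128, 124 and 159.5 TPM overlapped 130.3, 129 and 141 TPM (-0.03 ± 0.09, adjusted p = 0.83), where replicate 3 again held the highest value. The difference between lines was -0.20 ± 0.11 (adjusted p = 0.26), and -0.33 without that library (adjusted p = 0.0018). RFC4 and RFC5 were called lower in LS411N-BR (-0.13 and -0.15), and RFC2 in neither line. PCNA, RFC3 and RFC5 have annotated pseudogenes that could share reads, as do POLD2, FEN1, RRM2 and TYMS.

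Of the genes that join Okazaki fragments, LIG1 fell in both lines and FEN1 was not called. LIG1, which seals the fragments, stood at 19.7, 19.3 and 17.3 TPM in uninduced LS411N and 15.5, 14.4 and 14.6 TPM induced. In LS411N-BR it stood at 13.1, 13.5 and 12.4 TPM and at 8.51, 9.71 and 8.9 TPM induced. All induced libraries lay below the uninduced ones of their line, and LIG1 fell by 20.8% (-0.32 ± 0.06, adjusted p = 0.0049) and by 30.4% (-0.48 ± 0.05, adjusted p = 1.9e-05). FEN1, which trims the flap of the fragment, had log2 fold changes of 0.01 ± 0.06 and -0.02 ± 0.03. From the list of other replication genes, and named after their values were seen, DNA2, a nuclease that also cuts flaps, fell in both lines (-0.19, adjusted p = 0.028, and -0.47, adjusted p = 2.3e-06, with a difference of -0.27, adjusted p = 0.021), and RNASEH2A, the catalytic subunit of ribonuclease H2, fell in LS411N-BR (-0.19, adjusted p = 0.00039). Of the exonic bases of RNASEH2A, 30.8% overlap another gene on the same strand.

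No gene of nucleotide supply was called lower in either line. RRM2, the regulated subunit of ribonucleotide reductase, rose in LS411N from 119, 110.3 and 128 TPM to 136, 147 and 151 TPM, without overlap. The rise was 21.4% (0.28 ± 0.07, adjusted p = 0.013) and was lost without induced replicate 2 (adjusted p = 0.054) or 3 (0.059). In LS411N-BR, RRM2 was at 129.7, 134 and 135 TPM and at 128, 124 and 127 TPM induced, all lower, short of the threshold (-0.07 ± 0.03, adjusted p = 0.054). TYMS, thymidylate synthase, went from 76.7, 73 and 80.1 TPM to 67.4, 73.5 and 74.8 TPM in LS411N with overlap (adjusted p = 0.25), and from 109, 109.9 and 111 TPM to 106, 108 and 103 TPM in LS411N-BR without it (-0.06 ± 0.03, adjusted p = 0.1). Its exonic bases overlap those of ENOSF1 on the opposite strand by 39.1%, and those of RRM2 a same-strand gene by 20.2%. RRM1, the large subunit, had log2 fold changes of 0.02 and 0.00.

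Of the E2F regulators and UHRF1, UHRF1 changed in both lines. UHRF1, which brings maintenance DNA methylation to newly copied DNA, went from 23.1, 22.4 and 21.2 TPM to 18.7, 19.6 and 19.97 TPM in LS411N and from 17.1, 17.8 and 17.3 TPM to 14.1, 14.9 and 14.5 TPM in LS411N-BR. The groups did not overlap, and it fell by 12.6% (-0.18 ± 0.05, adjusted p = 0.024, and 0.052 to 0.085 when any library but uninduced replicate 3 was left out) and by 16.6% (-0.25 ± 0.03, adjusted p = 0.00013). E2F2, an activator of S phase genes, was at 12.3, 11.6 and 10.01 TPM and at 12.9, 12.9 and 12.1 TPM induced in LS411N, with overlap (0.15 ± 0.07, adjusted p = 0.14). In LS411N-BR it was at 11.5, 12 and 11.6 TPM and at 12.3, 12.2 and 12.8 TPM, without overlap but short of the threshold (0.08 ± 0.03, adjusted p = 0.065). E2F1, the activator named here after its values were seen, fell in LS411N-BR from 13.5, 13.4 and 13.5 TPM to 12.1, 12.3 and 12.3 TPM, by 8.94% (-0.13 ± 0.03, adjusted p = 0.0044, and 0.11 with the spread of all 12 libraries). In LS411N its groups overlapped (0.06 ± 0.08, adjusted p = 0.58). E2F8, a repressor of the family, fell in LS411N-BR (-0.11, adjusted p = 0.021) and was not called in LS411N. Over all 12 libraries a difference between the lines was not called for E2F1 (-0.18, adjusted p = 0.19) or E2F8 (-0.14, adjusted p = 0.11).

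**Figure D5:**
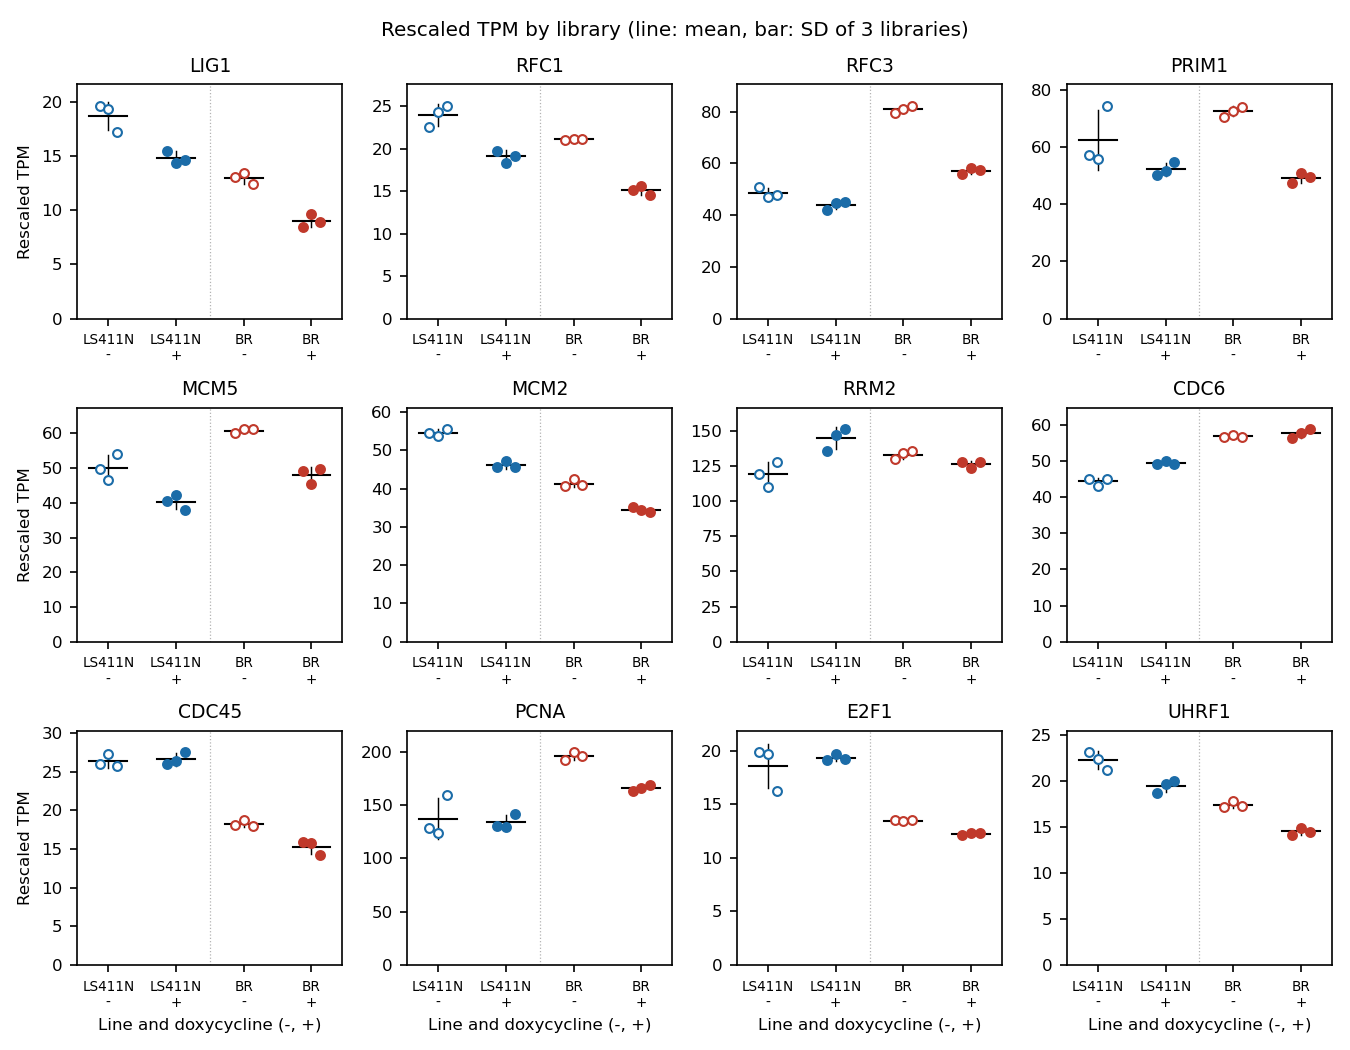
Rescaled TPM of 12 replication genes in each library (points), with the group mean (line) and SD of 3 libraries (bar), for LS411N (blue) and LS411N-BR (red, written BR), uninduced (open, -) and induced (filled, +). The tables of the lines were scaled separately. LIG1, RFC1, MCM5, MCM2 and UHRF1 are lower in both induced groups, CDC45 and PCNA in that of LS411N-BR, and RRM2 and CDC6 are higher in induced LS411N, all after rescaling.

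The question of whether the doxycycline effect differed between the lines was tested directly, as the interaction of line and doxycycline over all 12 libraries. Of the 40 genes, 3 had a lower effect in LS411N-BR (RFC3, RRM2 and CDC45) and 0 a higher one, against 5.8% and 4.37% of all 11681 genes tested. At an unadjusted p under 0.05 these counts were 8 and 2. RFC3 differed by -0.35 ± 0.06 (adjusted p = 0.0021) and kept its call on leaving out any library (0.0014 to 0.01). RRM2 differed by -0.35 ± 0.08 (adjusted p = 0.014, and 0.00098 to 0.041 on leaving out a library). CDC45 differed by -0.25 ± 0.07 (adjusted p = 0.029), and the adjusted p ranged from 0.021 to 0.072 on leaving out a library. As deposited, none of the 3 was called (RFC3 -0.23 with adjusted p = 0.53, RRM2 -0.22 with 0.61, CDC45 -0.13 with 0.72). The share of all genes called in either direction was also smaller on that scale, 2.12% against 10.2% after rescaling. Without replicate 3 of uninduced LS411N, 9 genes were called lower (CDC6, GINS3, PRIM1, PCNA, RFC4 and E2F8 in addition to these) and 0 higher (1 at an unadjusted p under 0.05), and the shares of all genes called lower and higher were larger as well, 11.9% and 8.38%. The fit uses 1 spread for lines whose replicates spread unequally. Across the 40 genes the effects in the lines, which share no libraries, had a Pearson r of 0.701, a description in which the points share their libraries. The r was 0.84 over the 63 other replication genes and is not given over all genes, so it cannot be read as a trait of the 40 genes.

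Levels of the lines were set side by side after rescaling all libraries over shared genes, with no test, since the tables were scaled separately. Uninduced, 12 of the 40 genes had all LS411N-BR libraries above those of LS411N, 22 all below, and 6 overlapped. The same count over all genes was not made, here or for the induced libraries. These counts can therefore not be read as a trait of replication genes. The ratio of means ran from 0.592 (POLA2) to 1.77 (POLE2), with POLD2 at 1.59, GINS1 at 1.55 and RFC3 at 1.52 next to the top, and POLD3 at 0.616, LIG1 at 0.629 and CDC45 at 0.63 next to the bottom. Induced, 11 were above, 24 below and 5 overlapped, and CDC45 had the lowest ratio, 0.523. The median log2 ratio of the 40 genes, LS411N-BR over LS411N, was -0.16 uninduced and -0.24 induced. The induced median was smaller in size as deposited, so it depends on the scaling. Within uninduced LS411N the order of levels was MCM7 (165 TPM), PCNA (137 TPM), MCM3 (126 TPM) and RRM2 (119 TPM), whose neighbours overlapped, and the lowest gene was POLE2 (7.52 TPM). In uninduced LS411N-BR, PCNA led at 196 TPM and stood clear of RRM2 (133 TPM), which overlapped MCM7 (126 TPM), and POLD1 was lowest (8.8 TPM).

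Of 63 other replication genes, 15 were called lower and 7 higher in LS411N, and 38 lower and 6 higher in LS411N-BR, with medians of -0.04 and -0.16. Over both directions 34.9% of them were called in LS411N and 69.8% in LS411N-BR, near the 34.8% and 64.5% of all genes. By direction, the shares of all genes were 16% lower and 18.8% higher in LS411N, and 32.2% and 32.3% in LS411N-BR. As deposited, 9 of the 63 were called lower and 19 higher in LS411N-BR, against 11.1% and 56.1% of all genes. RBL1, the gene of the retinoblastoma relative p107, stood at 8.08, 7.9 and 8.76 TPM in uninduced LS411N and 4.46, 4.29 and 4.88 TPM induced, and at 11.7, 11.9 and 12 TPM against 5.71, 5.68 and 5.72 TPM in LS411N-BR. Its groups were far apart, and RBL1 fell by 44.9% (-0.74 ± 0.06, adjusted p = 8e-05) and by 52% (-0.94 ± 0.03, adjusted p = 1.5e-08). E2F4, an E2F that acts with retinoblastoma family members as a repressor, fell by 27.8% (-0.46 ± 0.07, adjusted p = 0.0014) and by 37% (-0.65 ± 0.03, adjusted p = 7.4e-08). HELLS, a chromatin remodeller, fell by 24.7% and 33% (adjusted p = 0.0023 and 1.9e-06), and CHAF1B, a subunit of the chromatin assembly factor, by 21.1% and 31.1% (0.003 and 6.8e-07).

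CDC7, the kinase that fires origins, fell by 14% in LS411N (adjusted p = 0.03) and by 32.4% in LS411N-BR (adjusted p = 5.8e-07), and the effects differed by -0.32 ± 0.07 (adjusted p = 0.014). POLD4, the smallest subunit of polymerase delta, rose by 50.7% in LS411N (0.52 ± 0.07, adjusted p = 0.00061) and by 35.5% in LS411N-BR (0.38 ± 0.07, adjusted p = 0.0013). Of the exonic bases of POLD4, 21.3% overlap another gene on the same strand. POLE4, E2F3 and E2F5, named after their values were seen, were also called higher in both lines. As deposited, RBL1, E2F4, CDC7, CHAF1B and HELLS were also called lower in LS411N-BR, and of these 5 RBL1 alone in LS411N. Of these 63 genes, 9 had a lower effect in LS411N-BR and 1 (E2F3) a higher one, against 5.8% and 4.37% of all genes. Leaving out 1 library gave 1 to 17 of them called lower. As deposited, 0 were called, where 2.12% of all genes were.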

How the data were processed

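RNA of 12 libraries, 3 in each of 4 groups, was prepared with a TruSeq Stranded mRNA kit per the labels. The authors deposited TPM per gene in 2 tables, 1 per line; each library sums to 1000000. STAR, DESeq2 and GRCh38 appear in the submitters' processing notes, with no role attached. Which program and annotation gave the TPM is not stated there. Groups came from the sample titles.

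TPM of a table were rescaled by the median of ratios over genes above 0 in all 6 libraries (for comparisons across lines, over genes of both tables). Tests used limma (version 3.58.1, R version 4.3.3, moderated with an intensity trend), two-sided, on log2(TPM + 1), a scale that understates changes of low genes. They covered the genes that reached 1 TPM in 3 or more libraries. Calls required an adjusted p (Benjamini-Hochberg, over all genes tested) under 0.05. The scripts were tested on simulated data. Values in every library are given for the 2 genes of each role with the largest change (1 in a role of 2), those called in the interaction and those called against the majority; other replication genes are named at a log2 fold change of at least 0.5. Genes, lists and tests were chosen with earlier results of these data known. Positions and overlaps came from GENCODE 29, promoter windows from RefSeq. Alternatives were no rescaling, rescaling over genes of at least 5 TPM, a pseudocount of 0.1, other filters, other variance models, the replicate block and leaving out each library.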

Additional observations from a re-analysis of the deposited data

Results flagged for a closer look

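The doxycycline effect differed between the lines, by the interaction test of limma, for 3 of the 40 replication genes. This is 7.5% of them, against 10.2% of all 11681 genes tested, so the count is not above that of genes at large. As deposited, none of the 3 was called, where 2.12% of all genes were. RFC3 differed by -0.35 on the log2 scale, RRM2 by -0.35 and CDC45 by -0.25 (LS411N-BR minus LS411N), with both lines rescaled together. RFC3 had log2 fold changes of -0.14 in LS411N and -0.49 in LS411N-BR, RRM2 of 0.28 and -0.07, and CDC45 of 0.01 and -0.24. RRM2 has annotated pseudogenes and a same-strand overlap, and RFC3 an annotated pseudogene, and their part in these values was not tested.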

How the results depend on the processing

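Scaling was the choice that mattered most. As deposited, 0 replication genes were called higher and 0 lower in LS411N, and 12 higher and 5 lower in LS411N-BR. In the difference between lines 0 were called lower, where 2.12% of all genes were called in either direction. On that scale the log2 fold change in LS411N-BR turned sign for 16 of the 40 genes, 10 of them called lower after rescaling. Over all genes, the number with an effect above 0 in LS411N-BR rose as well, from 5614 to 8686. Among the genes given in every library those that turned were ORC6 (0.014, adjusted p = 0.86), CDT1 (0.041, 0.59), GMNN (0.032, 0.67), RRM2 (0.13, 0.046), TYMS (0.15, 0.028) and E2F1 (0.069, 0.36). The summed level in LS411N-BR changed by 3.42%. The median log2 ratio of the induced lines was -0.043, against -0.24 after rescaling. Leaving out 1 library gave 0 to 2 genes called higher and 6 to 13 lower in LS411N (6 without induced replicate 3, 7 without induced replicate 2). It gave 1 to 2 higher and 26 to 28 lower in LS411N-BR, and 2 to 9 lower in the difference. The share of all genes called in LS411N moved as well, from 34.8% to 23.1% without induced replicate 3. It was 22.3% without induced replicate 2 and 47.1% without uninduced replicate 3. On leaving out 1 library, the share of all genes called lay between 59.1% and 61.4% in LS411N-BR. In the difference the share of all genes lay between 5.68% and 20.3%. Without the filter on low values 1 gene was called higher in LS411N-BR. Same-numbered libraries did not deviate together (correlations from 0.003 to 0.199), so the numbers were not taken as pairs; with the replicate block, 2 genes were called higher and 12 lower in LS411N, 3 and 27 in LS411N-BR, and 3 lower in the difference. A pseudocount of 0.1, no intensity trend and robust moderation moved no call of the named genes. Depth is unknown, so counting error could not be separated from other spread.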
